A study of Mus musculus with 18 samples.

Results

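The T cell receptor (TCR) reads its ligand through a fixed set of partner chains, and the 9 genes described here encode those chains, the coreceptors beside them and a pair of scavenger-type receptors that dampen the signal. The genes were chosen by name: Cd3d, Cd3e, Cd3g and Cd247 for the CD3 complex, Cd4, Cd8a and Cd8b1 for the coreceptors, and Cd5 and Cd6. They are 9 of the 23337 genes in the count table, and all 9 were among the 11118 genes with enough reads to test. RNA was sequenced from iNKT cells (invariant natural killer T cells) of the mouse thymus, in 18 libraries that form 6 groups of 3. Each of the NKT1, NKT2 and NKT17 subsets was taken from wild-type (WT) and from SKG mice, all on the BALB/c background. SKG mice carry a point mutation that arose spontaneously in the second of the SH2 domains of ZAP70, the kinase that docks on the phosphorylated CD3 chains, and the question posed was how iNKT subsets form when the TCR signal is weak. WT and SKG animals were F3 mice bred in separate lines from F2 offspring of BALB/cJ and SKG parents, so line and genotype cannot be told apart, and the age of the mice at sorting is not given for these libraries.

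The 3 subsets were defined by surface proteins on CD1d tetramer-binding cells. NKT1 cells were sorted as ICOS low and CD49a positive, NKT17 cells as CD49a negative, ICOS high and Syndecan-1 positive, and NKT2 cells as CD49a negative, Syndecan-1 negative, ICOS high and high for both CD4 and TCRβ. CD4 protein was therefore part of the NKT2 gate, and surface TCRβ, which needs the CD3 chains, was another part. Levels of Cd4 between NKT2 cells and the other subsets are given below as a check of that gate and not as a finding. The SKG mutation is present in every cell of the animal, and gene-level counts cannot show a point mutation. Zap70 itself was read at 1788 counts or more in every library, and its log2 change in SKG over WT was -0.24, -0.39 and -0.58 in NKT1, NKT2 and NKT17 cells (adjusted p = 0.360, 0.0378 and 0.00174), each a change of under 1.5-fold.

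The CD3δ, CD3ε and CD3γ chains and the ζ homodimer, the product of Cd247, carry the immunoreceptor tyrosine-based activation motifs (ITAMs) that LCK phosphorylates and to which ZAP70 binds. CD4 and CD8 bring LCK to the receptor when it meets an MHC molecule, whereas the iNKT receptor sees the MHC-like protein CD1d. CD5 is set by the strength of TCR signaling during thymic selection and is widely read as a gauge of it, and both CD5 and its relative CD6 recruit proteins that restrain or shape the signal.

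The libraries held 4391029 to 8895917 counts assigned to genes. A gene was called, and is said to have risen or fallen, at an adjusted p under 0.1 together with a fold of at least 1.5. The NKT1 and NKT17 labels matched the summed levels of their marker genes. The NKT1, NKT2 and NKT17 lists each include the gene of a protein used in the gates, so such a match is partly set by the sort. The 6 NKT17 genes summed to 2382 to 2483 CPM (counts per 1000000) in WT NKT17 and 2389 to 2453 CPM in SKG NKT17 libraries. In the other libraries they summed to at most 14.3 CPM. Of these 6 genes, 1 rose and 2 fell in SKG over WT NKT17 cells. Among them Il23r, a receptor chain of NKT17 cells, was at 451.0 to 457 CPM in WT NKT17 and 236 to 251 CPM in SKG NKT17. Il23r was at most 0.979 CPM in the other libraries. The 6 NKT1 genes, among them Tbx21, summed to 3622 to 4661 CPM in NKT1 and 182 to 406 CPM in the other libraries. The 6 NKT2 genes summed to 1809 to 2397 CPM in NKT2, 1526 to 1876 CPM in NKT17 and 466 to 649 CPM in NKT1 libraries, and did not separate SKG NKT2 (1809 to 2228 CPM) from SKG NKT17 cells (1715 to 1876 CPM). Markers of double-positive thymocytes, the main CD4 and CD8 bearing cells of the thymus, summed to between 0.204 and 1.45 CPM over 5 genes in every library, and Rag1, Rag2, Dntt and Arpp21 had no count in the WT NKT17, SKG NKT1 and SKG NKT17 groups. Markers of conventional mature thymocytes, 6 genes that include Ccr7, summed to 692 to 754 CPM in SKG NKT2 against 341 to 434 CPM in WT NKT2 cells, to 211 to 224 CPM in SKG NKT17 against 62.9 to 72.2 CPM in WT NKT17 cells, and to 54.6 to 450.2 CPM in WT NKT1 against 277 to 538 CPM in SKG NKT1 cells. Of B cell markers, Cd79b was at 24.6 to 40.0 CPM in SKG NKT17 against 7.55 to 10.2 CPM in WT NKT17 cells and at most 5.57 CPM elsewhere, and Pax5 had 0 counts in every library. Myeloid and dendritic cell markers summed to 5.93 to 31.9 CPM. The part of these markers in the results below was not tested.

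Cd3d, Cd3e and Cd3g lie side by side. On mouse build NCBIM37, Cd3g (chr9:44777655-44788514, minus strand) and Cd3d (chr9:44789876-44795135, plus strand) stand head to head 1.36 kb apart, and Cd3e (chr9:44806826-44817673, minus strand) follows after 11.7 kb. Cd247 lies apart from them at chr1:167718812-167807407 on the plus strand, where Pou2f1 overlaps it on the opposite strand. The promoters of these 4 genes are shown because each clustered gene kept to a narrower range of levels across the groups than Cd247 did. Each is the 250 bases before the start of the gene, in the direction of transcription, from RefSeq on build GRCm38.p6, and capitals mark the ETS core GGAAG or its complement CTTCC.
Cd3d, chr9:44981536-44981785, plus strand: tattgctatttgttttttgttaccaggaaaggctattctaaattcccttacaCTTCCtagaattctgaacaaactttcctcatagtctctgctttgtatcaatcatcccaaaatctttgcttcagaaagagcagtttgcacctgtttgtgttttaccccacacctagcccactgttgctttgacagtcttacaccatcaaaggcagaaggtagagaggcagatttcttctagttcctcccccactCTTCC
Cd3e, chr9:45009612-45009861, minus strand: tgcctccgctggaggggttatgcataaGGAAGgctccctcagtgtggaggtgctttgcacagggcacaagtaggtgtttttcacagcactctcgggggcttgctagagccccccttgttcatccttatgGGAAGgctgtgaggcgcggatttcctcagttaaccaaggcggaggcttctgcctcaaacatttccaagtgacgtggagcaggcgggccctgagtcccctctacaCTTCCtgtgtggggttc
Cd3g, chr9:44980432-44980681, minus strand: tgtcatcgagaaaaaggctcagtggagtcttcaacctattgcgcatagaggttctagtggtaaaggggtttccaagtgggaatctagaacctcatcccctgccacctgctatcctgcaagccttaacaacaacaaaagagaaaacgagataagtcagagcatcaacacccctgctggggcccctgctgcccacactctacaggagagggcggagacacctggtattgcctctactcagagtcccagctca
Cd247, chr1:165788431-165788680, plus strand: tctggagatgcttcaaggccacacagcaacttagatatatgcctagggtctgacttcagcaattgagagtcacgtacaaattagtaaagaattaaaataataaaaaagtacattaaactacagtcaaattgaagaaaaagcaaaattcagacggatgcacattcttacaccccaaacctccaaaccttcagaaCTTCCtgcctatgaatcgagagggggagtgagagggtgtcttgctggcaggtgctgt
The ETS core was searched on both strands and matched 2 times in Cd3d, 3 times in Cd3e, 1 time in Cd247 and 0 times in Cd3g, and 64.1% of 32851 promoters of this length held it. The E-box CANNTG matched 1, 1, 3 and 2 times in Cd3d, Cd3e, Cd3g and Cd247 and was held by 66.2% of promoters. None of the 4 held the TATAAA box, which 12.4% of promoters held, or the RUNX motif TGTGGT, which 14% held. A match is a run of letters and not a shown site of binding.

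Cd247 was the 1 gene of the 4 CD3 chains that passed both thresholds between SKG and WT. It was highest in NKT2 cells, intermediate in NKT17 cells and lowest in NKT1 cells, and it was lower in SKG than in WT cells in NKT2 and NKT17 but not measurably so in NKT1. In WT NKT2 cells the 3 libraries read 1403, 1997 and 1555 CPM, scaled by the trimmed mean of M-values (TMM), and in SKG NKT2 cells they read 1039, 1032 and 844 CPM. In NKT17 cells the WT libraries read 874, 960.0 and 727.4 CPM and the SKG libraries 424, 478 and 441 CPM. Both pairs of groups were fully separated. In NKT1 cells the WT libraries read 290.2, 304 and 326 CPM and the SKG libraries 276, 297 and 307 CPM, and these overlapped. The log2 fold change in SKG over WT was -0.77 in NKT2 cells (SE 0.12, 95% interval -1.02 to -0.51, adjusted p = 0.000213) and -0.93 in NKT17 cells (SE 0.12, interval -1.19 to -0.67, adjusted p = 2.17e-05), by edgeR's quasi-likelihood test with Benjamini-Hochberg adjustment over all genes. In NKT1 cells it was -0.06 (interval -0.32 to 0.19, adjusted p = 0.904). The SKG effect itself differed between subsets, by -0.70 between NKT2 and NKT1 (SE 0.17, adjusted p = 0.0288) and by -0.87 between NKT17 and NKT1 (SE 0.18, adjusted p = 0.00655). The first of these lost its call, with a log2 difference of -0.55 that was under the 1.5-fold minimum, when WT NKT2 replicate 2, the highest Cd247 library, was left out. Between NKT17 and NKT2 the SKG effects differed by -0.17 (interval -0.53 to 0.19, adjusted p = 0.841). The marker sums of conventional mature thymocytes given above were higher in SKG than in WT libraries of the same NKT2 and NKT17 cells. Of 5 genes of that list tested, 1 rose and 0 fell in SKG over WT NKT2 cells, and 3 rose and 0 fell in NKT17 cells. In NKT1 cells 2 rose and 1 fell. The part of these genes in the Cd247 values was not tested.

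The order of mean Cd247 levels ran from WT NKT2 (1652 ± 308 CPM, SD, n = 3) through SKG NKT2 (972 ± 110), WT NKT17 (854 ± 118) and SKG NKT17 (447 ± 27.5) to WT NKT1 (307 ± 18.1) and SKG NKT1 (293 ± 15.6). The ranges of SKG NKT2 and WT NKT17 overlapped, as did those of both NKT1 groups, and every other pair of neighbors in this order was separated. Between subsets in WT cells, NKT1 was 5.38-fold below NKT2 (log2 -2.43, SE 0.13, adjusted p = 2e-12) and 2.78-fold below NKT17 (log2 -1.48, SE 0.13, adjusted p = 3.02e-09). In SKG cells the same differences were 3.31-fold (log2 -1.73, SE 0.13) and 1.52-fold (log2 -0.61, SE 0.12). The last sits just over the 1.5-fold minimum, and leaving out SKG NKT1 replicate 1 or SKG NKT17 replicate 2 brought it under. In bulk samples such as these, fewer cells of a type and less RNA per cell cannot be told apart.

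**Figure D1:**
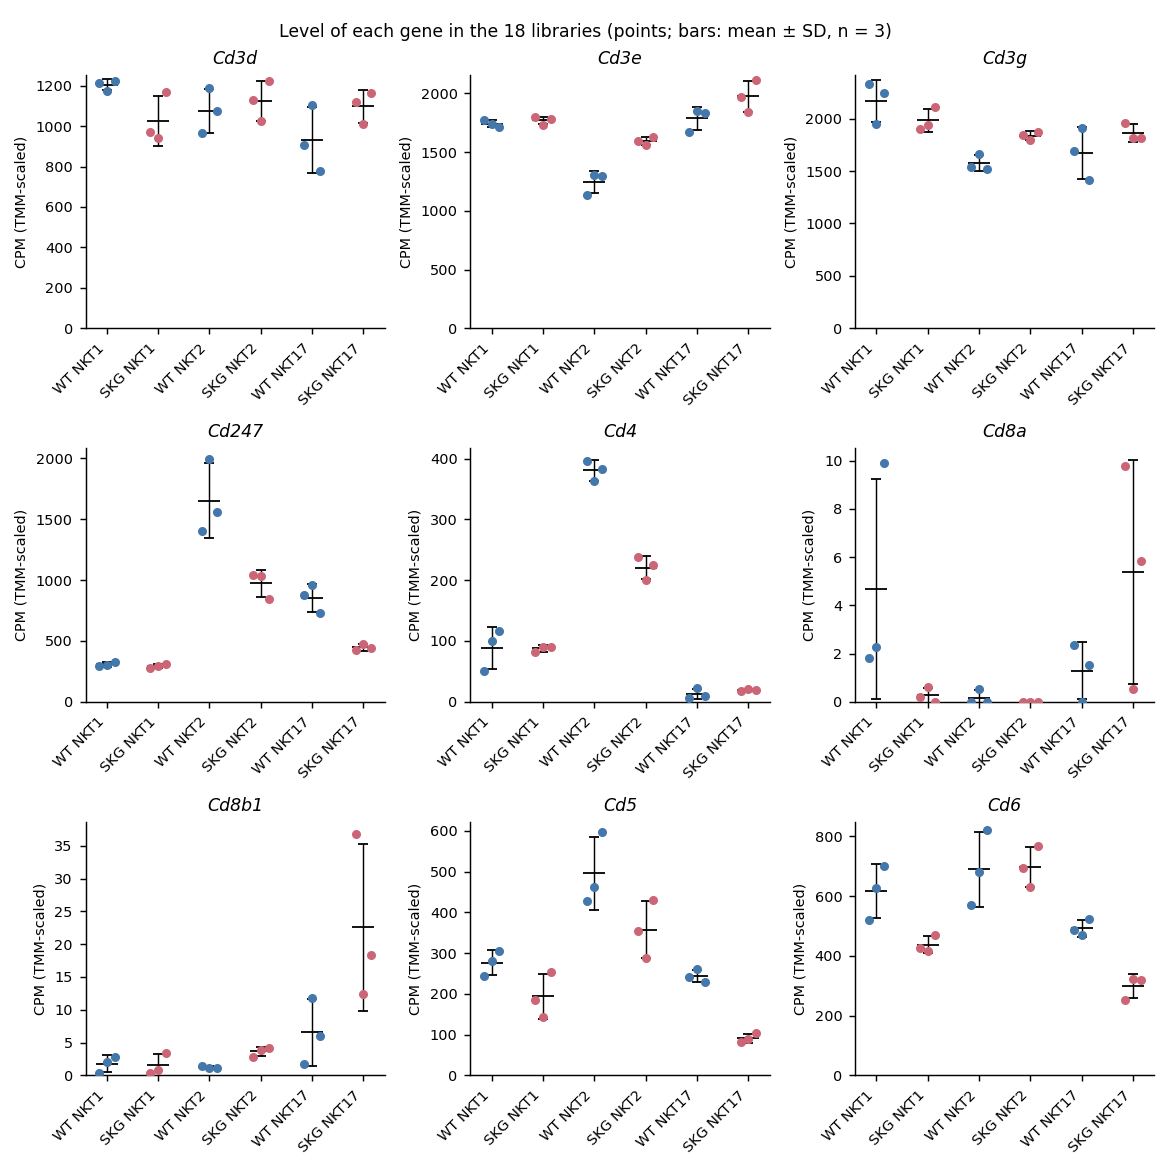
Level of each of the 9 genes in CPM after TMM scaling (vertical axes, linear, from 0) in every library of the 6 groups (points; blue WT, red SKG), with bars for the mean and SD of 3 libraries. Cd3d, Cd3e and Cd3g stay within 779 to 2329 CPM, whereas Cd247 runs from 276 to 1997 CPM, Cd4 is highest in NKT2 cells and Cd5 and Cd6 are lowest in SKG NKT17 cells.

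The other CD3 chains varied far less. Cd3d, which encodes CD3δ, read 779 to 1225 CPM over all 18 libraries and passed no test between SKG and WT, with log2 changes of -0.23, 0.06 and 0.24 in NKT1, NKT2 and NKT17 cells, although its WT and SKG NKT1 libraries were just apart at 1173 and 1168 CPM. Cd3g, which encodes CD3γ, read 1414 to 2329 CPM, with log2 changes of -0.13, 0.22 and 0.16. Neither gene reached an adjusted p under 0.1 in any of these 3 comparisons, and the 95% intervals lay between -0.48 and 0.48. Cd3e, which encodes CD3ε, the chain that pairs with both CD3δ and CD3γ, was the lowest in WT NKT2 cells. Its 3 WT NKT2 libraries read 1138, 1304 and 1294 CPM against 1597, 1561 and 1627 CPM in SKG NKT2 cells, with no overlap. The log2 change there was 0.36 (SE 0.08, adjusted p = 0.00807), which passed the adjusted p but was a change of only 1.28-fold, opposite in sign to that of Cd247 in the same cells. In NKT1 and NKT17 cells the log2 changes of Cd3e were 0.02 and 0.14 (intervals -0.15 to 0.20 and -0.03 to 0.32).

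Between subsets, Cd3e in WT cells was higher in NKT1 than in NKT2 (log2 0.48, SE 0.08, adjusted p = 0.000101) and higher in NKT17 than in NKT2 (log2 0.52, 1.43-fold, SE 0.08, adjusted p = 5.99e-05). In SKG cells these differences were 0.15 (adjusted p = 0.239) and 0.31 (SE 0.08, adjusted p = 0.00981) on the log2 scale. Cd3g in WT cells was 1.38-fold higher in NKT1 than in NKT2 (adjusted p = 0.0011) and 1.30-fold higher than in NKT17 (adjusted p = 0.00655). None of these reached the 1.5-fold minimum.

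Setting Cd247 against Cd3e within each library removes the scaling between libraries, but differences in Cd3e enter the ratio. Cd3e was itself 1.28-fold higher in SKG than in WT NKT2 cells, which widens the gap of the ratio there. There were 1.32 ± 0.18 Cd247 counts for each Cd3e count in WT NKT2 cells (SD, n = 3) and 0.610 ± 0.079 in SKG NKT2 cells. The ratio was 0.479 ± 0.072 in WT NKT17 and 0.228 ± 0.027 in SKG NKT17 cells. It was lowest in NKT1 cells, at 0.176 ± 0.013 in WT and 0.166 ± 0.010 in SKG. The genotypes were apart in NKT2 and NKT17 cells and ran into each other in NKT1 cells. By contrast, the counts of Cd3g for each Cd3e count kept to a group mean of 0.938 to 1.27, and those of Cd3d to 0.521 to 0.863.

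**Figure D2:**
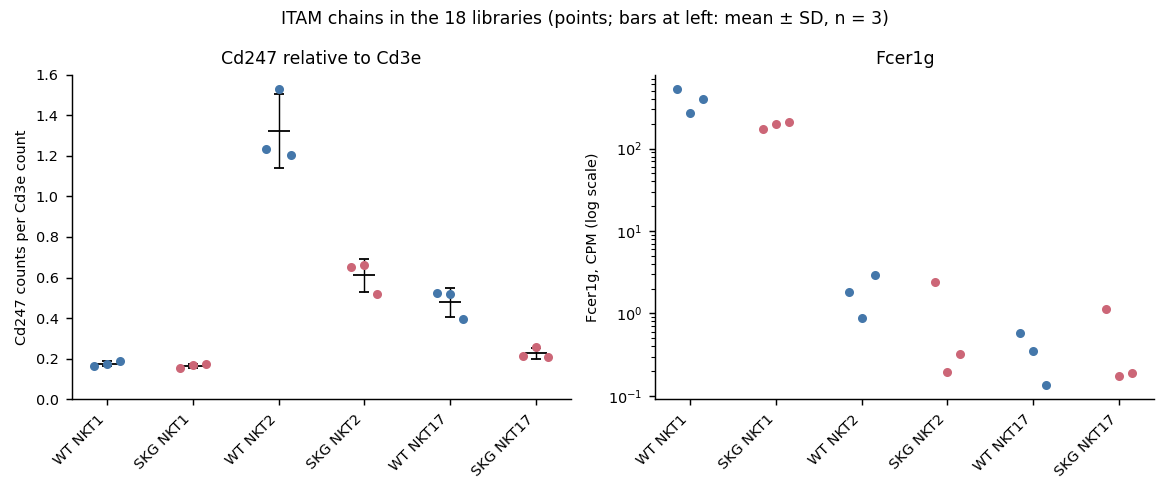
Left, Cd247 counts for each Cd3e count in every library (points; bars, mean and SD of 3 libraries); right, Fcer1g in CPM on a log axis, with groups along the horizontal axis. The ratio is highest in WT NKT2 (1.20 to 1.53) and lowest in both NKT1 groups (0.154 to 0.190), and Fcer1g is at 171 to 523 CPM in NKT1 libraries and at most 2.91 CPM in all others.

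Compared per kilobase of exon, Cd3g was the most abundant of the CD3 genes in every group, at 1472 to 2029 CPM per kb in the group means, followed by Cd3e at 867 to 1374 and Cd3d at 703 to 910 CPM per kb. Cd247 was lowest when taken over its exon union of 5372 bases, at 54.6 to 307.5 CPM per kb. That length is uncertain, because the coding transcripts of Cd247 run from 1315 to 2713 bases. A shorter length would raise the level of Cd247 per kilobase, and its rank at such a length was not worked out. In addition, 55.9% of the exon union overlaps exons of Pou2f1 on the opposite strand. The library kit does not mark strand, so reads of the shared bases cannot be assigned by strand. Pou2f1 itself read 19 to 102 counts in these libraries against 1428 or more for Cd247, and its log2 changes in SKG over WT were -0.08, 0.62 and -0.58, none with an adjusted p under 0.1.

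Fcer1g encodes an ITAM chain that can stand in for CD3ζ in some receptors and that pairs with natural killer receptors, and it was high where Cd247 was lowest. It read 272 to 523 CPM in WT NKT1 and 171 to 212 CPM in SKG NKT1 libraries, and between 1 and 18 counts in each of the other 12 libraries. The log2 change of SKG over WT in NKT1 cells was -1.04 (SE 0.31, adjusted p = 0.0990). Tyrobp, which encodes the ITAM adaptor DAP12, and Hcst, which encodes the adaptor DAP10, were also higher in NKT1 than in NKT2 cells of both genotypes, Hcst by 1.02 (SE 0.17) in WT and 1.15 (SE 0.17) in SKG on the log2 scale. In NKT17 cells Hcst was higher in SKG than in WT (log2 0.66, SE 0.17, adjusted p = 0.0197).

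The coreceptor genes followed the sort gates in part. Cd4 (chr6:124814710-124838239 on NCBIM37, minus strand) read 396, 362 and 383 CPM in WT NKT2 and 238, 199 and 225 CPM in SKG NKT2 cells, which had been sorted as CD4 high. In WT NKT1 cells it read 50.1, 100.2 and 116 CPM and in SKG NKT1 cells 81.9, 90.4 and 90.8 CPM. In NKT17 cells it was near the bottom of the range, at 6.44, 23.0 and 9.33 CPM in WT and 18.3, 21.6 and 19.5 CPM in SKG. Cd4 thus fell into 3 separate levels by subset in both genotypes. Because both NKT2 groups passed the same gate, the fold from NKT17 to NKT2 (29.4 in WT, 11.1 in SKG) describes the gate, while NKT1 over NKT17, subsets gated without CD4, differed by 2.77 (SE 0.36, adjusted p = 3.28e-05) in WT and 2.15 (SE 0.35, adjusted p = 0.00029) in SKG on the log2 scale.

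Within NKT2 cells the SKG and WT libraries of Cd4 did not overlap, all having passed the CD4 gate, and the log2 change was -0.79 (SE 0.31, interval -1.46 to -0.11), but the adjusted p was 0.163. It passed with only the 6 NKT2 libraries in the model, and without WT NKT1 replicate 1, WT NKT17 replicate 1 or WT NKT17 replicate 2, while the log2 change stayed between -0.79 and -0.77. In NKT1 cells the change was -0.01 (interval -0.70 to 0.68) and in NKT17 cells 0.62 (interval -0.19 to 1.42, adjusted p = 0.384). Leaving out WT NKT17 replicate 2, the highest of its group, raised the last to 1.30 (adjusted p = 0.0076).

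Cd8a and Cd8b1, which encode the CD8α and CD8β chains, are neighbors on chromosome 6, 36.0 kb apart (chr6:71323421-71329165 and chr6:71272830-71287471 on NCBIM37, both on the plus strand), and had 0 to 69 and 2 to 260 counts a library. Cd8a had 0 counts in all 3 SKG NKT2 libraries, which allows up to 0.577 CPM at 3 counts a library, and 0, 3 and 0 counts in WT NKT2 cells. It was uneven in WT NKT1 cells, at 15, 12 and 56 counts, and in SKG NKT17 cells, at 69, 3 and 31 counts. In SKG NKT1 cells it had 1, 3 and 0 counts and in WT NKT17 cells 12, 0 and 11. The summed rate in WT NKT1 cells was 17.3 times that in SKG NKT1 cells (counting interval 6.50 to 64.9) but the adjusted p for the difference between libraries was 0.129. That difference passed in DESeq2 (adjusted p = 0.0690) and without WT NKT17 replicate 2 or SKG NKT17 replicate 2. In WT cells the rate in NKT1 was 24.3 times that in NKT2 (counting interval 8.02 to 120.0, adjusted p = 0.0163), and in SKG cells the rate in NKT17 was 22.7 times that in NKT1 (counting interval 8.59 to 84.8, adjusted p = 0.0209). The mean of SKG NKT17 cells was at least 9.32-fold above SKG NKT2 cells, taking 3 counts a library as the floor (adjusted p = 0.00503 by edgeR). SKG NKT17 replicate 2, at 3 counts, was itself at that floor, so this fold does not hold for each library. The counting intervals cover counting error only. Per the study's methods, an enrichment step for iNKT cells preceded these sorts, and the enrichment it describes for its stimulation assays removed cells bearing CD8β and CD62L.

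Cd8b1 was highest in SKG NKT17 cells, at 36.8, 12.4 and 18.4 CPM against 1.76, 11.8 and 6.04 CPM in WT NKT17 cells. The groups did not overlap, but their nearest libraries read 12.4 and 11.8 CPM. The log2 change was 1.78 (SE 0.64, interval 0.46 to 3.10, adjusted p = 0.0915), a call that was lost in 15 of 24 alternative settings. Among the libraries, leaving out any NKT2 library of either genotype, replicate 2 of either NKT1 group, or replicate 1 or 3 of either NKT17 group ended it, and without SKG NKT17 replicate 1, the highest, the change was 1.23 (adjusted p = 0.417). In the other 4 groups Cd8b1 lay between 0.362 and 4.18 CPM. In SKG cells NKT17 was above NKT1 by 3.81 (SE 0.73, adjusted p = 0.000381) and above NKT2 by 2.61 (SE 0.67, adjusted p = 0.00644) on the log2 scale, and both calls held in each of 24 alternatives. In WT cells NKT17 was above NKT1 by 1.95 (SE 0.71, adjusted p = 0.0466) and above NKT2 by 2.44 (SE 0.75, adjusted p = 0.0213), and both calls were lost without WT NKT17 replicate 2, the former also without WT NKT1 replicate 1 or with only the libraries compared. Cd79b and the conventional thymocyte marker sum, given above, were also higher in SKG NKT17 than in WT NKT17 cells, and their part in the Cd8b1 values was not tested.

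Cd5 and Cd6 are near each other on chromosome 19 with the protein-coding gene A430093F15Rik between them, and both were lower in SKG than in WT NKT17 cells. Noncoding genes between them were not looked for. Cd5 lies at chr19:10792633-10813464 and Cd6 at chr19:10863831-10904548 on NCBIM37, both on the minus strand. The promoter of Cd5 is shown as that of a gene that fell in SKG NKT17 cells. It is drawn from the same RefSeq table, and its capitals mark the ETS core, which matched 2 times, beside 2 E-boxes and no TATA box or RUNX match.
Cd5, chr19:10738975-10739224 on GRCm38.p6, minus strand: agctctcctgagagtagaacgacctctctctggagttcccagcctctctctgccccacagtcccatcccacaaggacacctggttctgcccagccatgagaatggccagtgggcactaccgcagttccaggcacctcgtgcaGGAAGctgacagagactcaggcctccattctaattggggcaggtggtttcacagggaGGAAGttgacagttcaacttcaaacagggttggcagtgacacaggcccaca

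Cd5 read 242, 261 and 230.2 CPM in WT NKT17 cells and 82.4, 88.1 and 104 CPM in SKG NKT17 cells. Every WT library was above the highest SKG library. The log2 change was -1.42 (SE 0.18, interval -1.80 to -1.04, adjusted p = 2.76e-05), a 2.67-fold difference. In NKT2 cells it read 428, 462 and 597 CPM in WT and 355, 288 and 429.7 CPM in SKG. In NKT1 cells it read 245, 281 and 304 CPM in WT and 184, 144 and 253 CPM in SKG. In each of these 2 subsets the highest SKG library reached above the lowest WT library. The log2 changes were -0.47 in NKT2 (SE 0.18, interval -0.84 to -0.10, adjusted p = 0.117) and -0.51 in NKT1 (SE 0.18, interval -0.88 to -0.14, adjusted p = 0.158), and neither passed. The study, which used DESeq2 with these thresholds, names Cd5 among the inhibitory genes that were lower in SKG NKT1 cells. DESeq2 run here did not call Cd5 in NKT1 cells, and the reason for this difference was not tested. The difference of the SKG effect was -0.91 between NKT17 and NKT1 (SE 0.25, adjusted p = 0.0618) and -0.95 between NKT17 and NKT2 (SE 0.25, adjusted p = 0.0717). The former was lost, with adjusted p up to 0.147, without WT NKT1 replicate 1, WT NKT17 replicate 1 or 2, SKG NKT17 replicate 1 or 2, or SKG NKT1 replicate 3. The latter was lost in 11 of 24 alternatives, with adjusted p up to 0.210, among them leaving out WT NKT2 replicate 1 or 2, any WT NKT17 replicate, SKG NKT2 replicate 1 or 3, or SKG NKT17 replicate 1 or 2. Without SKG NKT1 replicate 3 the change in NKT1 cells was -0.75 (adjusted p = 0.0252), and without SKG NKT2 replicate 3 that in NKT2 cells was -0.63 (adjusted p = 0.0610), both past the thresholds.

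Cd6, whose ligands include ALCAM, read 486, 468 and 524 CPM in WT NKT17 and 254, 323 and 320.2 CPM in SKG NKT17 cells, again with no overlap. Its log2 change was -0.72 (SE 0.13, interval -0.99 to -0.45, adjusted p = 0.000781). In NKT1 cells the WT libraries read 521, 627 and 700.6 CPM and the SKG libraries 425, 417 and 469 CPM. These also did not overlap, and the change of -0.50 (SE 0.13, adjusted p = 0.0403) passed the adjusted p but, at 1.41-fold, not the fold minimum, which it passed without WT NKT1 replicate 1 (-0.60). In NKT2 cells the groups ran through each other, at 570.5, 679 and 820.7 CPM in WT and 695, 631 and 767 CPM in SKG, with a change of 0.02 (interval -0.25 to 0.28). The SKG effect differed between NKT17 and NKT2 by -0.74 (SE 0.18, adjusted p = 0.0444), and leaving out WT NKT2 replicate 1, SKG NKT17 replicate 1, WT NKT17 replicate 3 or SKG NKT2 replicate 3 ended that call, with adjusted p up to 0.154.

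Between subsets, both genes had their highest mean in NKT2 cells of each genotype. For Cd6 in WT cells NKT1 and NKT2 overlapped (log2 -0.16, interval -0.43 to 0.11), and NKT17 was below NKT2 by 0.49 (SE 0.13, adjusted p = 0.00816), under the fold minimum. In WT cells Cd5 was lower in NKT1 than in NKT2 by 0.84 (SE 0.18, adjusted p = 0.00098) and lower in NKT17 than in NKT2 by 1.02 (SE 0.18, adjusted p = 0.000204) on the log2 scale, while NKT1 and NKT17 differed by 0.18 (interval -0.19 to 0.55). In SKG cells NKT17 was lower than NKT2 by 1.97 (SE 0.18, adjusted p = 1.03e-07) and lower than NKT1 by 1.09 (SE 0.18, adjusted p = 0.000106). Cd6 in SKG cells was lower in NKT17 than in NKT2 by 1.22 (SE 0.13, adjusted p = 2.54e-07) and lower in NKT1 than in NKT2 by 0.67 (SE 0.13, adjusted p = 0.000482). There were 0.719 ± 0.035 Cd5 counts for each Cd6 count in WT NKT2 cells (SD, n = 3) and 0.307 ± 0.030 in SKG NKT17 cells, with group means of 0.440 to 0.509 in the other 4 groups.

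**Figure D3:**
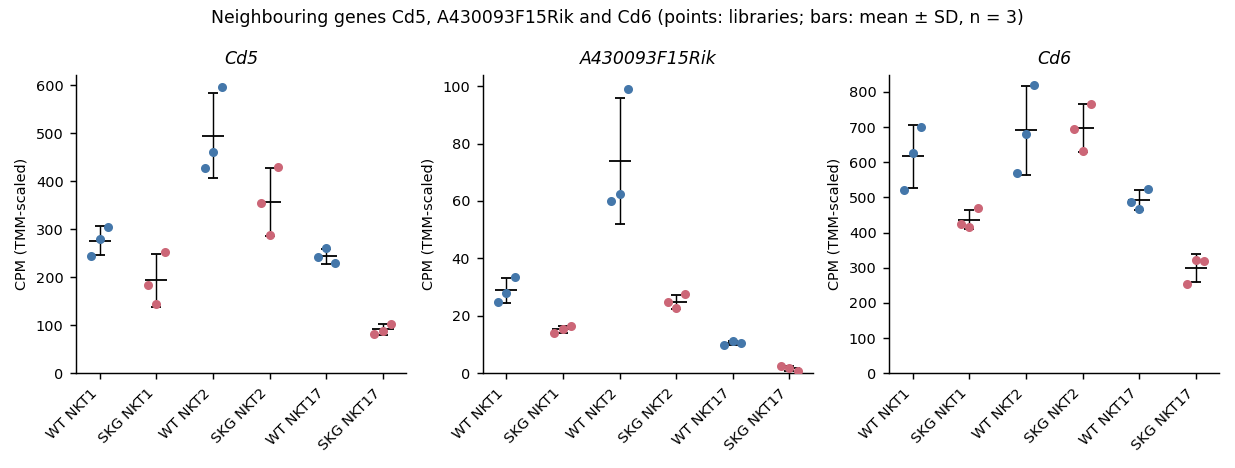
CPM after TMM scaling (linear axes from 0) of Cd5, of Cd6 and of A430093F15Rik, the protein-coding gene between them, in every library of the 6 groups (points; bars, mean and SD of 3 libraries). All 3 genes are lowest in SKG NKT17 cells, and the WT and SKG NKT2 libraries are apart for A430093F15Rik and overlapping for Cd5 and Cd6.

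A430093F15Rik, 1.97 kb from Cd5 and 3.30 kb from Cd6, was looked up for its place after the values of both were seen. It was lower in SKG than in WT cells in all 3 subsets, by 0.91 in NKT1 (SE 0.24, adjusted p = 0.0374), 1.56 in NKT2 (SE 0.23, adjusted p = 8.25e-05) and 2.50 in NKT17 (SE 0.30, adjusted p = 7.16e-06) on the log2 scale, with no overlap in any. Its mean was 73.8 ± 21.9 CPM in WT NKT2 and 1.80 ± 0.81 CPM in SKG NKT17 cells. Over the 18 libraries the log2 levels of Cd5 went with those of Cd6 (Pearson's r = 0.945) and of A430093F15Rik (r = 0.921), a description over libraries that share groups and come with no p.

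Counted over the 9 genes, 0 passed both thresholds in SKG against WT NKT1 cells by edgeR's quasi-likelihood test, where 3.27% of all genes tested did. At an unadjusted p under 0.05 there were 3, and DESeq2 called 1, Cd8a. No share over all genes was taken for these counts, so they cannot be set against the whole table. In NKT2 cells 1 gene passed, Cd247, against 7.95% of all genes. In NKT17 cells 4 passed, Cd247, Cd5 and Cd6 lower and Cd8b1 higher, against 8.37% of all genes, 4.54% lower and 3.83% higher. Without the fold minimum 1, 2 and 4 genes passed in the 3 subsets, against 4.20%, 11.4% and 12.6% of all genes. WT and SKG libraries did not overlap for 3 genes in NKT1, 5 in NKT2 and 4 in NKT17 cells, and for 16.3%, 30.1% and 26.9% of all genes. For the difference of the SKG effect, Cd247 alone passed between NKT2 and NKT1 (3.87% of all genes), Cd247, Cd8a and Cd5 between NKT17 and NKT1 (4.17%), and Cd5 and Cd6 between NKT17 and NKT2 (2.19%).

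**Figure D4:**
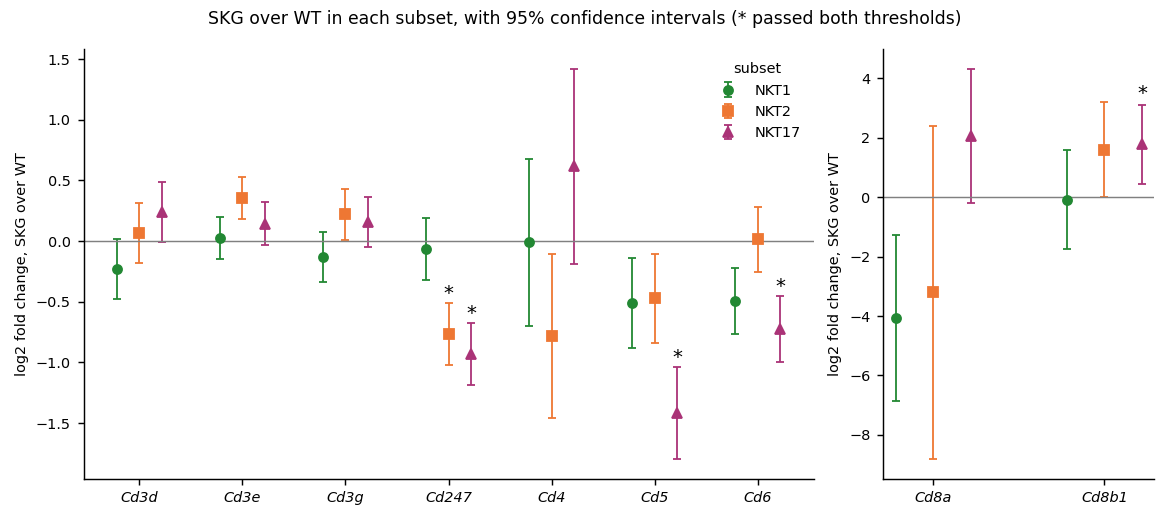
Log2 fold change of SKG over WT for each gene in NKT1 (green circles), NKT2 (orange squares) and NKT17 cells (purple triangles), with 95% intervals; the right panel has a wider axis for the sparse CD8 genes, and stars mark genes that passed both thresholds. The stars stand over Cd247 in NKT2 and NKT17 cells and over Cd5, Cd6 and Cd8b1 in NKT17 cells.

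Between subsets in WT cells, 4 of the 9 genes passed for NKT1 against NKT2 (27.5% of all genes), 3 for NKT1 against NKT17 (24.7%) and 4 for NKT17 against NKT2 (20.0%). Without the fold minimum each of these came to 6, against 38.8%, 33.3% and 28.0% of all genes. In SKG cells 4, 5 and 6 passed in the same order (18.7%, 22.8% and 18.8%). Cd247 and Cd4 passed in all 6 of these comparisons, Cd5 in 5, Cd8b1 in 4, Cd8a in 3 and Cd6 in 2, and Cd3d, Cd3e and Cd3g in none. The Cd4 calls against NKT2 cells describe the CD4 gate and are not a finding, although the counts above include them.

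**Figure D5:**
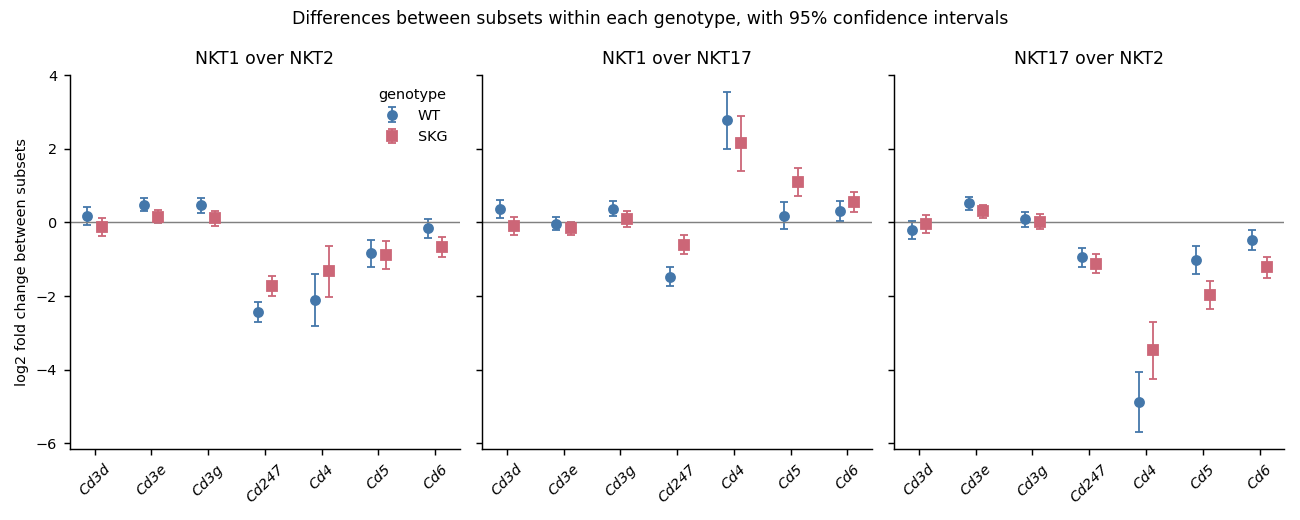
Log2 fold change between subsets within WT (blue circles) and SKG (red squares) for 7 of the genes, with 95% intervals, in panels for NKT1 over NKT2, NKT1 over NKT17 and NKT17 over NKT2. Cd247 lies at -2.43 in WT and -1.73 in SKG for NKT1 over NKT2, the Cd4 values involving NKT2 describe the sort gate, and Cd3d, Cd3e and Cd3g stay within 0.52 of zero.

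Other genes of the pathway were taken from lists. Over all genes tested, 1.46% rose and 1.82% fell in SKG over WT NKT1 cells, 3.90% rose and 4.05% fell in NKT2 cells, and 3.83% rose and 4.54% fell in NKT17 cells. Of 15 proximal kinases and scaffolds, 2 rose and 0 fell in SKG over WT in each subset, and in each these were Themis and Trat1. Trat1, a transmembrane adaptor that associates with the TCR complex and CD3ζ, rose by 1.00 (SE 0.22) in NKT1, 2.64 (SE 0.24) in NKT2 and 2.39 (SE 0.26) in NKT17 cells on the log2 scale. Themis, a regulator of TCR signaling in thymic selection, rose by 1.64 (SE 0.30) in NKT2 and 3.02 (SE 0.35) in NKT17 cells, and in NKT1 cells it went from at most 2 counts in a WT library to 95 to 112 counts in the SKG libraries. The median log2 change of the list was 0.12, 0.36 and 0.11 in the 3 subsets, beside medians of -0.01, -0.004 and 0.005 over all genes tested.

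Of 13 tested genes for receptor turnover and for partners of CD5 and CD6, 0 rose and 1 fell (Ubash3b, -0.82) in NKT1, 2 rose and 1 fell in NKT2, and 1 rose and 1 fell in NKT17 cells, with list medians of -0.11, 0.04 and -0.17. Ubash3a, which encodes a negative regulator of TCR signaling, rose by 1.37 (SE 0.21) in NKT2 and 3.14 (SE 0.31) in NKT17 cells. Sla2, whose product lowers surface TCR, fell by 0.98 (SE 0.15) in NKT2 cells, and Ptpn6, the phosphatase SHP-1, fell by 0.64 (SE 0.16) in NKT17 cells. Among WT subsets, Ubash3a was 3.06 (SE 0.22) higher in NKT1 than in NKT2 cells on the log2 scale and Ptpn22, a phosphatase acting on LCK and ZAP70, 2.30 (SE 0.15) higher.

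Of 14 transcription factors for the CD4 and CD8 lineages, 1 rose and 0 fell in NKT1, 1 rose and 4 fell in NKT2, and 0 rose and 4 fell in NKT17 cells of SKG mice, with list medians of -0.01, -0.13 and -0.16. Lef1, a factor of early thymocytes, fell by 1.10 (SE 0.19) in NKT2 and fell by 3.19 (SE 0.22) in NKT17 cells, from 79.2 ± 10.5 CPM in WT NKT17 to 8.67 ± 1.45 CPM in SKG NKT17 cells (SD, n = 3). Tox, a factor required for CD4 lineage development, fell by 0.91 (SE 0.19) and fell by 0.99 (SE 0.19) in the same subsets, and Gata3 fell by 0.64 (SE 0.13) in NKT2 cells. Runx1 was the gene of the list that rose in NKT1 cells (log2 0.67, SE 0.20, adjusted p = 0.0725). Of the 3 other ITAM and activating adaptor genes, 0 rose and 1 fell in NKT1, 0 changed in NKT2, and 1 rose and 0 fell in NKT17 cells.

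The genes whose log2 levels followed each of the 9 most closely over the 18 libraries were sought among the 8620 genes whose mean reached 50 counts a library. For Cd247 these were Tox (Pearson's r = 0.966), Sh2d1a (r = 0.966), which encodes the adaptor SAP, and Rbbp7 (r = 0.962). For Cd5 they were Gm4902 (r = 0.972), Lef1 (r = 0.966) and Sept6 (r = 0.964), and for Cd6 they were Pacsin1 (r = 0.933), Snx4 (r = 0.932) and Folr4 (r = 0.911). Cd4 was closest to Ssbp2 (r = 0.971) and Cd3e to Atp2b1 (r = 0.965). For Cd3d and Cd3g, which varied little, the highest values were 0.881 (Psmb3) and 0.890 (Leprotl1), and between Cd3d and Cd3g r was 0.651. Cd3e gave r = 0.040 with Cd3d and 0.480 with Cd3g. These values rest on 6 groups of 3 libraries and include the differences between groups.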

How the data were processed

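Thymic iNKT cells were sorted by the study into NKT1, NKT2 and NKT17 cells of WT and SKG mice, with 3 libraries per group from experiments described as independent; whether a library was 1 animal is not given. The authors deposited raw counts per gene symbol. Per the study's methods, 50-base single-end reads from poly-A based Nextera libraries were aligned to mm9 with TopHat, low-complexity reads were removed and reads were counted with htseq-count in union mode. The submitters' processing notes name TopHat 1.4.1, Bowtie 1.0.0, HTSeq 0.7.1 and the builds mm10 and hg19, so the build is uncertain. Annotation and strand setting are not given in the sources used here. Of the columns, 2 matched no listed sample and were not used.

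Counts were analysed with edgeR 4.0.16 in R 4.3.3: filtering at a minimum count of 10, TMM scaling and robust quasi-likelihood tests on all 18 libraries, with 12 comparisons and Benjamini-Hochberg adjustment over 11118 genes in each. A gene was called at an adjusted p under 0.1 and a fold of at least 1.5. The common biological coefficient of variation was 21.1%. With 3 libraries against 3, an exact permutation test of a single value cannot go below p = 0.1 and was not used. The p-values measure the spread between libraries, which may be in part technical. DESeq2 1.42.0, other scalings, no filter, a replicate block and leaving out each library were alternatives. Scripts were tested on simulated data.

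The 9 genes and the gene lists were chosen with earlier results of these data known. From each list the 3 called genes with the smallest adjusted p in a comparison could be named. A token in the library titles was checked as a pairing: deviations of libraries with the same token correlated at 0.239, 0.219 and 0.351 for WT NKT17 against NKT2 cells, the comparison in which every pair exceeded 0.1, and blocking on it changed no call among the 9 genes there. Between SKG subsets the correlations were 0.051 to 0.214, each the highest for its own token. For WT NKT1 against the other WT subsets they were -0.061 to 0.262. Positions came from the GENCODE M1 annotation on NCBIM37, which held all 9 genes, and promoters from RefSeq, which matched 6. Some marker genes are not reported here.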

Additional observations from a re-analysis of the deposited data

Results flagged for a closer look

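The SKG effect differed between subsets for 4 of the 9 genes, by the interaction tests of edgeR's quasi-likelihood model, which called 3.87% of all genes for NKT2 minus NKT1, 4.17% for NKT17 minus NKT1 and 2.19% for NKT17 minus NKT2. For Cd247 the log2 SKG effect was lower in NKT2 than in NKT1 cells (difference -0.70, adjusted p = 0.0288) and lower in NKT17 than in NKT1 cells (difference -0.87, adjusted p = 0.00655), and the former call was lost in 1 of 24 alternatives. For Cd5 the effect in NKT17 cells differed by -0.91 from that in NKT1 (adjusted p = 0.0618) and by -0.95 from that in NKT2 cells (adjusted p = 0.0717), calls that were lost in 6 and 11 of 24 alternatives. For Cd6 it differed by -0.74 between NKT17 and NKT2 cells (adjusted p = 0.0444), a call lost in 4 of 24 alternatives. For Cd8a the fitted difference between NKT17 and NKT1 cells was 6.14 (adjusted p = 0.0654), which rests on groups with 0 to 69 counts a library and was lost in 7 of 24 alternatives, with adjusted p up to 0.177, among them leaving out SKG NKT1 replicate 1 or 3, SKG NKT17 replicate 1 or 3, WT NKT1 replicate 3 or WT NKT17 replicate 3.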

How the results depend on the processing

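Depth limits the CD8 genes: at 3 counts a library, levels under 0.489 to 0.577 CPM (group means) could not be told from 0. Over 12 comparisons and up to 24 alternatives each, 2464 of the values for single genes kept their direction and call, 50 lost a call, 25 gained one and 44 changed sign. Without a fold minimum the number of genes passing was 1 (Cd6) in SKG over WT NKT1, 2 (Cd3e and Cd247) in NKT2 and 6 in WT NKT1 over NKT17 cells. Upper-quartile scaling and no filter on low counts each left 1 gene, Cd6, for the SKG effect in NKT17 minus NKT2. DESeq2 called 1, Cd8a, in SKG over WT NKT1, and a model of only the libraries compared called 3, Cd247, Cd4 and Cd8b1, in NKT2. Upper-quartile scaling moved the median of all genes by -0.10 in WT NKT1 over NKT2. For the counts of genes called in this section, other than those without a fold minimum, no share over all genes was taken. They cannot be set against the whole table.

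The replicate block on the title token raised the count in SKG over WT to 2 (Cd5 and Cd6) in NKT1 and to 3 (Cd247, Cd4 and Cd5) in NKT2 cells. The share of all genes called under the block was not taken. WT and SKG share only 2 tokens, and over the 3 subsets their deviations correlated at -0.151 to 0.090. What the tokens stand for is not given. The block left 3 in NKT17 cells, without Cd8b1, and took the Cd8a call from the SKG effect in NKT17 minus NKT1.

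Upper-quartile scaling gave 0.010 for Cd4 in SKG over WT NKT1, -0.0051 for Cd6 in SKG over WT NKT2, -0.0064 for Cd3g in SKG NKT17 over NKT2 and -0.0036 for Cd5 in the SKG effect of NKT2 minus NKT1. The replicate block gave -0.033 for Cd3e in SKG over WT NKT1, and -0.031 for Cd3d and -0.11 for Cd6 in NKT2. Only the libraries compared gave 0.0073 for Cd4 in SKG over WT NKT1.

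Leaving out 1 library at a time, the number called ranged from 0 to 1 in SKG over WT NKT1, 1 to 2 in NKT2, and for the SKG effects 0 to 2 in NKT2 minus NKT1 (0 without WT NKT2 replicate 2), 1 to 3 in NKT17 minus NKT1 (1 without SKG NKT17 replicate 1 or SKG NKT1 replicate 3) and 0 to 2 in NKT17 minus NKT2. Log2 changes whose range crossed zero were those in SKG over WT NKT1 for Cd4 (-0.30 to 0.24) and Cd8b1 (-1.47 to 0.50), in SKG over WT NKT2 for Cd3d (-0.0064 to 0.14), Cd6 (-0.10 to 0.16) and Cd8a (-3.79 to 0), in NKT17 over NKT2 for Cd3g (-0.019 to 0.19 in WT, -0.016 to 0.043 in SKG) and Cd3d (-0.10 to 0.033 in SKG), in WT NKT1 over NKT2 for Cd8b1 (-0.10 to 1.02), in the SKG effect of NKT2 minus NKT1 for Cd5 (-0.14 to 0.28) and Cd8a (-0.33 to 4.07), and in that of NKT17 minus NKT2 for Cd8b1 (-0.37 to 0.89) and Cd3g (-0.16 to 0.040). The cause was not tested.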
